A study of Mus musculus with 8 samples.

Results

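The 10 genes described here encode the JAK kinases (Jak1, Jak2, Jak3 and Tyk2), members of the SOCS family of feedback inhibitors (Socs1, Socs2, Socs3, Socs6 and Cish) and the STAT inhibitor Pias1. They were taken by symbol, and each had 1 row among the 24625 rows of the expression table, which carried 19836 distinct gene symbols. Expression was measured in neutrophils from the lungs of wild type C57BL/6J mice aged 6 to 12 weeks. Through the trachea, the left lung had received a volume of 2.3 µl per g of body weight that held the bacterium Streptococcus pneumoniae (SP) or, in controls, only phosphate-buffered saline (PBS). After 24 h, lungs were made into cell suspensions and cells carrying Ly6G, a neutrophil surface protein, were pulled out on magnetic beads. There were 4 PBS and 4 SP samples, each measured on 1 Affymetrix Mouse Gene 1.1 ST array. Precision is limited by this number of arrays. The study's methods describe a purity check by stained cell spreads for the pneumonia samples only. The sample labels do not say whether each array came from a separate mouse. A figure legend of the study describes each sample as taken from a mouse, with n = 4 per group. The p-values measure only the spread between these samples, which from the labels alone may be technical.

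Many receptors for interferons, interleukins and colony-stimulating factors have no kinase of their own and carry JAK kinases on their tails. When a cytokine binds, the JAKs phosphorylate each other, the receptor and STAT transcription factors, which then enter the nucleus. SOCS genes are among the targets that STATs switch on, and SOCS proteins bind JAKs or receptors and recruit a ubiquitin ligase, which closes a negative feedback loop. In neutrophils this pathway carries the signals of granulocyte colony-stimulating factor, granulocyte-macrophage colony-stimulating factor and interferons.

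Values are log2 expression levels as deposited, so 1 unit is a 2-fold difference, and levels of different genes are not compared because probes differ in brightness. A gene was called when limma's adjusted p over all rows was at most 0.05. Array medians lay between 6.06 and 6.20 in PBS and between 5.78 and 5.91 in SP, a shift of -0.28 that bears on every small difference. Limma gave its lowest array weights to PBS replicate 2 (0.464) and SP replicate 3 (0.197), against 0.722 to 2.69 for the other arrays, so results are also given without this pair of arrays. In both groups the 10 neutrophil markers were bright, with list means of 12.51 ± 0.14 (SD, n = 4) in PBS and 12.28 ± 0.45 (SD, n = 4) in SP. Markers of endothelium, epithelium and B cells were mostly lower in SP. In bulk RNA, fewer cells of a type and less RNA per cell cannot be told apart.

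Of the 10 genes, 6 were higher in SP (Socs1, Cish, Jak2, Socs3, Tyk2 and Socs6), 1 was lower (Socs2) and 3 were not called (Jak1, Jak3 and Pias1). Thus 7 of 10 were called, beside 44.1% of all rows. The background was 21.5% of rows called higher and 22.6% called lower. Socs1, Cish, Jak2 and Socs3 were called and at least 2-fold higher, which held for 6.37% of all rows, and none of the 10 was called at least 2-fold lower, beside 11.3% of rows, although Socs2 was in 4 of 16 alternatives. The SP and PBS samples did not overlap for the 7 called genes, beside 49.0% of all rows without overlap. The median difference, SP minus PBS, was 0.68 log2 units over the 10 genes and 0.10 over all rows.

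**Figure D1:**
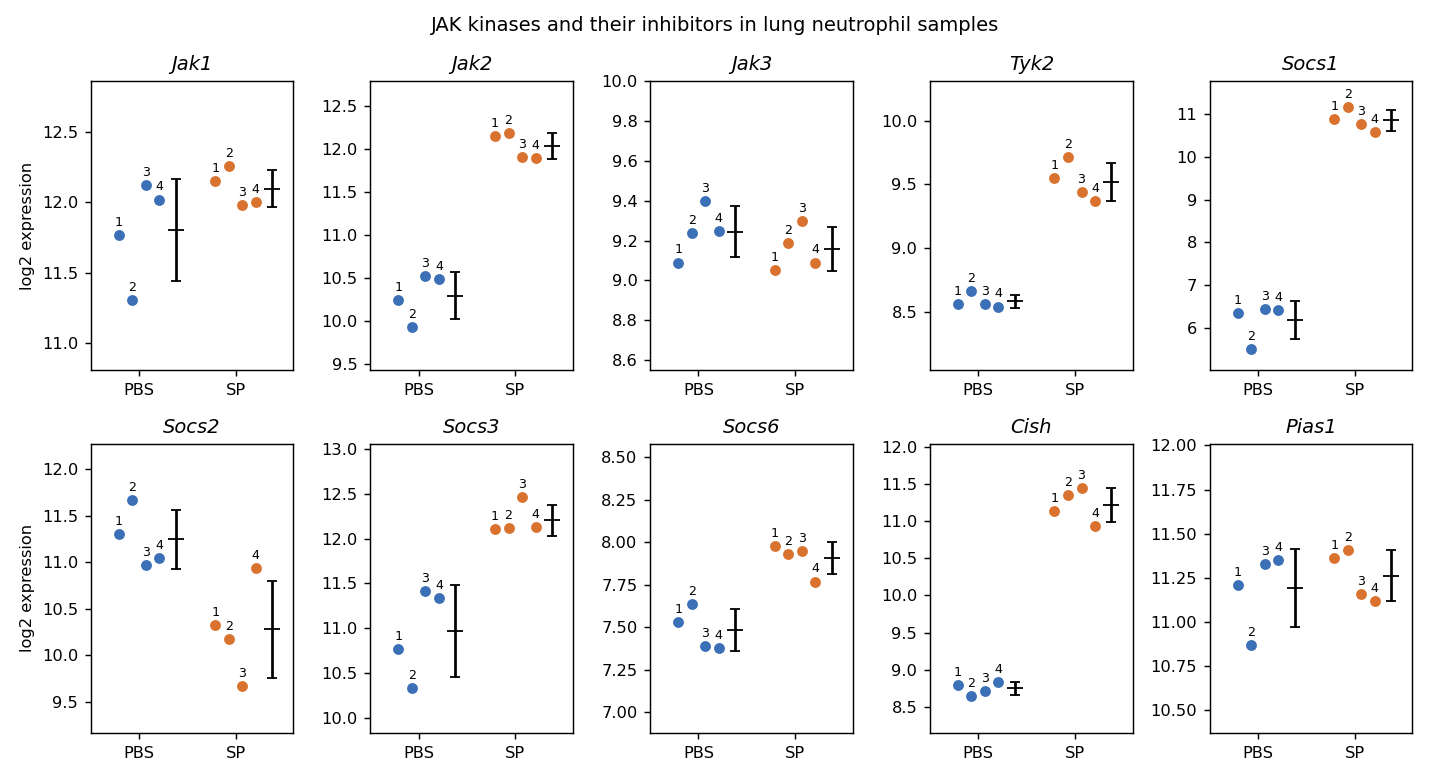
Log2 expression (vertical axis, with a separate range for each gene) of the 10 genes in the 4 PBS (blue) and 4 SP (orange) samples, numbered by replicate, with the mean and SD of each group as bars. Groups are apart for Jak2, Tyk2, Socs1, Socs3, Socs6 and Cish (SP above PBS) and for Socs2 (SP below PBS, by 0.030), and they overlap for Jak1, Jak3 and Pias1.

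Among the kinases, Jak2 and Tyk2 rose while Jak1 and Jak3 were not called. Jak2 is a kinase of the receptors for interferon gamma and for the granulocyte and granulocyte-macrophage colony-stimulating factors. It measured 10.25, 9.93, 10.52 and 10.49 in PBS replicates 1 to 4 and 12.15, 12.19, 11.91 and 11.90 in SP replicates 1 to 4. The lowest SP sample stood 1.38 log2 units above the highest PBS sample. The mean went from 10.30 ± 0.27 to 12.04 ± 0.15 (SD, n = 4 each), 3.34-fold (95% confidence interval 2.66 to 4.21, limma adjusted p = 5.25e-05).

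Tyk2, which sits on the receptors for type I interferon, interleukin 10 and interleukin 12, measured 8.56, 8.66, 8.56 and 8.54 in PBS and 9.55, 9.71, 9.44 and 9.37 in SP. The PBS samples were nearly level and every SP sample was above them. Means were 8.58 ± 0.055 and 9.52 ± 0.15 (SD, n = 4 each), a difference of 0.94 log2 units (standard error 0.089), or 1.91-fold (limma adjusted p = 9.78e-05). The call held under every alternative other than limma treat, which was read only as counts. The difference passed 1 log2 unit with arrays centred on their medians (1.22).

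Jak1, the kinase used by most receptors of interferons, by the interleukin 6 family and by the common gamma chain family, measured 11.77, 11.31, 12.12 and 12.02 in PBS and 12.15, 12.26, 11.98 and 12.00 in SP. The groups overlapped, with PBS replicate 2 the lowest of all samples. The difference was 0.29 log2 units (95% confidence interval -0.10 to 0.69, limma adjusted p = 0.187), so a rise of up to 1.62-fold lies inside its interval. With arrays centred on their medians it was 0.57 and called (limma adjusted p = 0.0232).

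Jak3, the partner of Jak1 on receptors with the common gamma chain, measured 9.09, 9.24, 9.40 and 9.25 in PBS and 9.05, 9.19, 9.30 and 9.09 in SP. The groups overlapped across nearly their whole range. The difference was -0.091 log2 units (95% confidence interval -0.30 to 0.12, limma adjusted p = 0.422), which as a ratio of SP to PBS spans 0.810 to 1.09. Its sign turned with arrays centred on their medians (0.19, limma adjusted p = 0.196), so no direction is given for it.

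A shift common to all genes of an array cancels in differences inside that array. A shift that varies with brightness does not. Differences between kinases inside 1 array describe unequal change without a level for any kinase. Jak2 minus Jak1 was -1.52, -1.38, -1.59 and -1.53 in PBS and 0.0, -0.07, -0.06 and -0.1 in SP, in log2 units. The samples within each group lay close together and the groups were far apart, so the balance of the pair moved by 1.45 toward Jak2. Against Jak3 and Tyk2, Jak2 gained 1.83 and 0.81. Tyk2 gained 0.64 on Jak1 and 1.03 on Jak3. All of these 5 differences were without overlap between the groups, whereas Jak1 minus Jak3 overlapped, with a change of 0.38. A further quantile normalization moved the kinases unequally, so the sizes of these changes depend on scaling. It took Jak1 from 0.29 to 0.039, Jak2 from 1.74 to 1.56, Jak3 from -0.091 to -0.084 and Tyk2 from 0.94 to 1.01. No test was run on these 6 pairs. They reuse the same kinases, and each pair without overlap holds Jak2 or Tyk2, which were already without overlap alone. Their separation is thus no evidence beyond those genes, and 49.0% of all single rows were without overlap.

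Socs1 showed the largest difference of the 10 genes. Its protein binds JAKs directly, blocks their catalytic site and restrains interferon signalling above all. The log2 values were 6.34, 5.51, 6.44 and 6.41 in PBS and 10.88, 11.17, 10.77 and 10.57 in SP. The lowest SP sample was 4.13 log2 units above the highest PBS sample, and within PBS, replicate 2 lay apart from the other samples on the low side. Means of 6.17 ± 0.45 and 10.85 ± 0.25 (SD, n = 4 each) gave a 25.5-fold rise (95% confidence interval 17.8 to 36.6, limma adjusted p = 4.79e-06). Without PBS replicate 2 and SP replicate 3 the difference was 4.48 log2 units in place of 4.67.

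Cish encodes CIS, which binds activated receptors of the cytokines that signal through STAT5. It measured 8.80, 8.65, 8.71 and 8.83 in PBS and 11.13, 11.35, 11.44 and 10.93 in SP. Replicates of a group stayed within 1 log2 unit of each other and the groups were 2.10 apart at their nearest samples. Expression rose 5.52-fold, from 8.75 ± 0.080 to 11.21 ± 0.23 (SD, n = 4 each, limma adjusted p = 4.79e-06), and the difference was between 2.36 and 2.75 log2 units under all alternatives.

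Socs3, the inhibitor that acts on receptors of the gp130 class and on the receptor for granulocyte colony-stimulating factor, measured 10.77, 10.33, 11.42 and 11.34 in PBS and 12.11, 12.12, 12.46 and 12.13 in SP. The PBS samples spread over more than 1 log2 unit and SP replicate 3 stood above the other SP samples. The lowest SP sample was 0.69 above the highest PBS sample. Means were 10.97 ± 0.51 and 12.20 ± 0.17 (SD, n = 4 each), a 2.36-fold rise (95% confidence interval 1.62 to 3.43, limma adjusted p = 0.00358). Without PBS replicate 2 and SP replicate 3 the difference was 0.94 log2 units, which is under 2-fold but still called (limma adjusted p = 0.00493).

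Socs6, a family member tied to growth factor and insulin receptors more than to JAKs, showed the smallest difference among the called genes. It measured 7.53, 7.64, 7.39 and 7.38 in PBS and 7.98, 7.93, 7.95 and 7.77 in SP. Every SP sample was above every PBS sample, with a gap of 0.13. The rise was 1.34-fold (95% confidence interval 1.16 to 1.54, limma adjusted p = 0.00575), from a mean of 7.49 ± 0.12 to 7.91 ± 0.097 (SD, n = 4 each).

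Socs2, best known as the brake on growth hormone signalling, was the 1 gene of the 10 that fell. It measured 11.30, 11.67, 10.97 and 11.04 in PBS and 10.33, 10.18, 9.67 and 10.94 in SP. PBS replicate 2 was the highest sample, SP replicate 3 the lowest, and SP replicate 4 came within 0.030 of the lowest PBS sample. The mean went from 11.24 ± 0.32 to 10.28 ± 0.52 (SD, n = 4 each), 1.95-fold lower, with a log2 difference of -0.96 (95% confidence interval -1.58 to -0.35, limma adjusted p = 0.0197). With the fall called, it passed 1 log2 unit after a further quantile normalization (-1.12) and when SP replicate 4 (-1.19), PBS replicate 4 (-1.03) or PBS replicate 3 (-1.06) was left out. The call was lost without PBS replicate 1 (-0.95, limma adjusted p = 0.0503) and without PBS replicate 2 and SP replicate 3 together (-0.62, limma adjusted p = 0.0507).

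The signs of the SOCS genes therefore differed, with 4 of the 5 higher and 1 lower in SP. Their differences ran from -0.96 log2 units for Socs2 over 0.42 for Socs6, 1.24 for Socs3 and 2.46 for Cish to 4.67 for Socs1. The 95% confidence intervals of Socs1, Cish and Socs3 did not overlap one another, and neither did those of Socs3 and Socs6 or of Socs6 and Socs2. Differences between these genes were not tested.

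Pias1, a SUMO ligase that keeps activated STATs from DNA, measured 11.21, 10.87, 11.33 and 11.35 in PBS and 11.36, 11.41, 11.16 and 11.12 in SP. The groups overlapped, with PBS replicate 2 the lowest sample. The difference was 0.070 log2 units (95% confidence interval -0.22 to 0.36, limma adjusted p = 0.651), so a change beyond 1.28-fold upward or 0.858 of the PBS level downward lies outside the interval. Its sign turned without PBS replicate 2 (-0.037) and after a further quantile normalization (-0.14), so no direction is given.

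**Figure D2:**
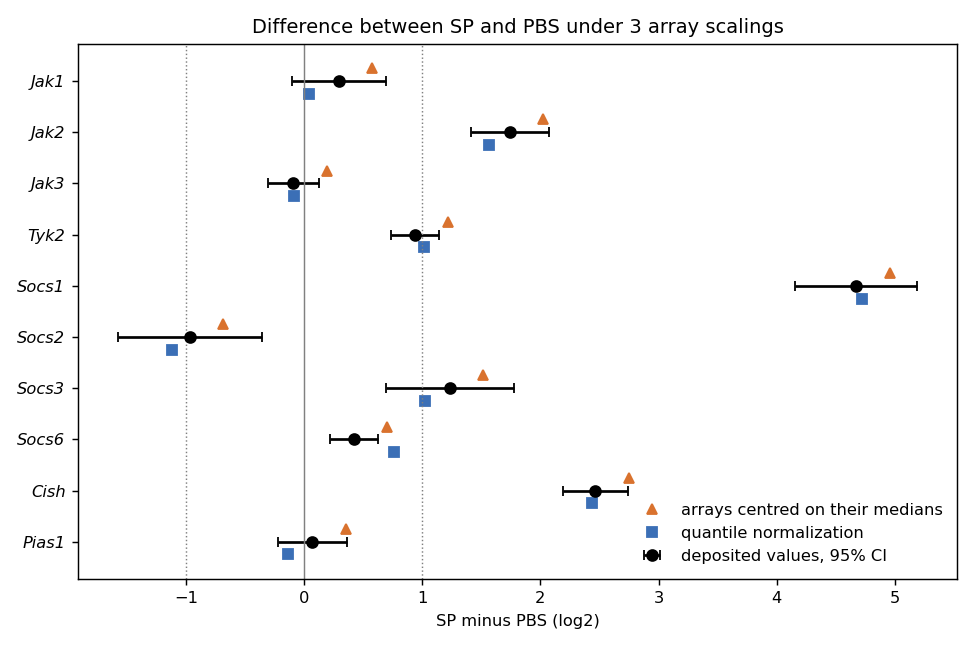
Difference between SP and PBS in log2 units (horizontal axis) for each of the 10 genes, as deposited with its 95% confidence interval (black), with arrays centred on their medians (orange) and after a further quantile normalization (blue). Dotted lines mark 2-fold, and only Jak3 and Pias1 change sign between the scalings.

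The stretches below come from the promoter windows of the 3 inhibitors that rose by at least 2-fold. DNA motifs of STATs and interferon regulatory factors were searched there, as SOCS genes are among the targets of STATs. Binding was not measured, so these stretches show matching letters only. They were cut from RefSeq promoter windows of the mouse assembly GRCm38.p6, which reach from 250 bases before to 50 bases after the transcript start given in that table. The windows held an entry for 8 of the 10 genes, not for Socs2 and Socs6. Capitals mark a match to GAS (TTCNNNGAA, the motif of STAT dimers) in Cish and Socs3, and matches to the core of the interferon-stimulated response element (GAAANNGAAA) in Socs1. The Socs1 stretch is chr16:10785580-10785643 on the minus strand, the Socs3 stretch chr11:117969488-117969544 on the minus strand and the Cish stretch chr9:107296635-107296688 on the plus strand, each written 5′ to 3′ along the gene.
Socs1: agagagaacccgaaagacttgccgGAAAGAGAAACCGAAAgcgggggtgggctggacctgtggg
Socs3: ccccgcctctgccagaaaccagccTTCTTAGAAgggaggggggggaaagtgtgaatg
Cish: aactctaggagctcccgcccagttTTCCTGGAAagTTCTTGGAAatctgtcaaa

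In the Socs1 stretch, matches beginning 83 and 77 bases before the start overlapped, so that 3 GAAA blocks followed one another in the same direction. At least 2 such matches were found in 0.225% of the 32851 promoters of the table, and at least 1 in 3.44%. In Cish, a pair of GAS matches began at the start itself and 11 bases after it, and at least 2 GAS matches were found in 0.457% of promoters. The single GAS match of Socs3 began 154 bases before the start of its window, which lies 970 bases inside the annotated gene, and 8.3% of promoters held at least 1. Thus GAS matched in 2 of the 8 promoters and the interferon core in 1 of 8. The GAS form with a longer spacer, TTCNNNNGAA, matched in none of the 8 and in 6.95% of all promoters. A motif like that of NF-κB (GGGANNNNCC) was found in Tyk2, Pias1 and Socs3, that is in 3 of 8, and in 20.7% of all promoters. The starts used for Socs1 and Cish were the outer ends of the annotated genes. Both strands were searched. A match describes the letters only. Pias1, which was not called, also held a match, and the windows of Jak1, Jak2 and Jak3 held none of the 4 motifs.

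**Figure D3:**
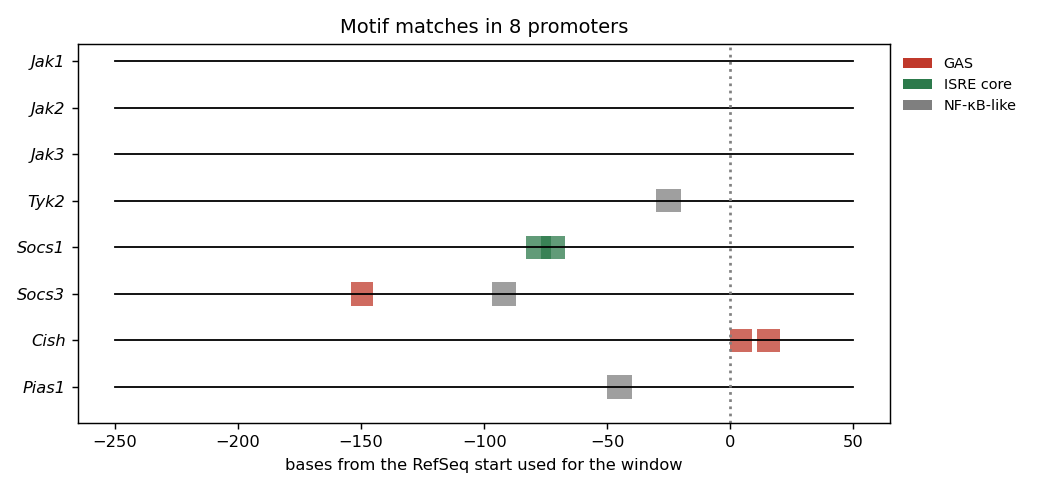
Motif matches in the promoter windows of 8 genes, in bases from the RefSeq start (dotted line), with each window drawn as a line from 250 bases before to 50 bases after it. The interferon core (green) lies in Socs1, GAS (red) in Socs3 and Cish, and the NF-κB-like motif (grey) in Tyk2, Socs3 and Pias1.

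The rest of the pathway was read from 10 lists of genes, of which 109 of 111 had a row. Among them 50 were higher in SP, 9 were lower and 50 were not called, beside 21.5% of all rows called higher and 22.6% called lower. At least 2-fold, 33 were called higher and 5 lower, beside 6.37% and 11.3% of rows. Their median difference was 0.39 log2 units, below the 0.68 of the JAK, SOCS and PIAS genes described above.

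Of the 6 further SOCS and PIAS genes, 2 were higher and none was lower. Pias4, a SUMO ligase related to Pias1, went from 8.14 ± 0.31 to 9.69 ± 0.26 (SD, n = 4 each), 2.92-fold (limma adjusted p = 2.88e-04). Socs4 rose 1.65-fold (limma adjusted p = 0.00157). Socs5, Socs7, Pias2 and Pias3 were not called, with differences of -0.35, 0.060, -0.016 and -0.14 log2 units, and the sign of each turned under at least 1 alternative. The STATs are the factors onto which the JAKs pass their signal, and Irf9 joins them in the response to type I interferon. Stat2 rose 6.93-fold (limma adjusted p = 1.35e-05), Irf9 2.52-fold and Stat5a 1.88-fold. Stat3, Stat4, Stat5b and Stat6 were not called at 0.15, -1.15, -0.38 and 0.31 log2 units. Stat4, at an adjusted p of 0.0549 by limma, was called lower in 7 of 16 alternatives. These included the replicate block (limma adjusted p = 0.0268), leaving out PBS replicate 2 (-1.50, limma adjusted p = 0.0104) or SP replicate 3 (-1.44, limma adjusted p = 0.0203), and leaving out both (-1.80, limma adjusted p = 0.000423). Stat5b was called without PBS replicate 2 (-0.58, limma adjusted p = 0.0334), and Stat6 without PBS replicate 3 (0.39, limma adjusted p = 0.0423). With arrays centred on their medians, Stat3 (0.44, limma adjusted p = 0.0198) and Stat6 (0.59, limma adjusted p = 0.00909) were called.

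SOCS proteins work through a ubiquitin ligase made of elongins, a cullin and a RING protein. Of its 5 subunits listed, Eloc and Rbx1 were called higher, by 0.39 (limma adjusted p = 0.0366) and 0.28 (limma adjusted p = 0.0407) log2 units. Each of these calls was lost in 9 of 16 alternatives, that of Rbx1 also with the replicate block (limma adjusted p = 0.0724). Among single samples, the call of Eloc was lost without PBS replicate 1, 2 or 4 or SP replicate 1, 2 or 3, and that of Rbx1 without PBS replicate 2 or 4 or SP replicate 1, 2 or 4. With PBS replicate 2 left out the limma adjusted p was 0.0852 for Eloc and 0.0951 for Rbx1. Elob, Cul5 and Rnf7 were not called (0.038, 0.24 and 0.16 log2 units). Cul5 was called in 5 of 16 alternatives, among them without SP replicate 3 (0.39, limma adjusted p = 0.0471) and after a further quantile normalization (0.50, limma adjusted p = 0.00638). Elob (0.32, limma adjusted p = 0.0373) and Rnf7 (0.44, limma adjusted p = 0.02) were called with arrays centred on their medians. Of 13 phosphatases and other brakes on the pathway, 7 were higher and none was lower. Usp18, which displaces Jak1 from the type I interferon receptor, rose 5.65-fold (limma adjusted p = 3.88e-06). Ptpn6, the phosphatase SHP-1, was 1.98-fold higher and Ptprj 1.93-fold higher, while Ptprc, the brightest of the list, was not called (-0.11), except without PBS replicate 2 and SP replicate 3 (-0.35, limma adjusted p = 0.0274).

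The receptors were grouped by family, and the JAKs named apply to a class, not to each of its chains. Of 10 receptors listed with the common gamma chain class, served mostly by Jak1 and Jak3, 7 were higher and none was lower. Their median difference was 1.39. The list includes Crlf2 (2.43-fold higher) and Il13ra1 (not called), which do not pair with the common gamma chain. Il15ra rose 18.0-fold and Il7r 6.81-fold, and the common gamma chain itself, Il2rg, was 3.43-fold higher. Of 10 interferon and interleukin 10 class receptors, 6 were higher and 2 lower, with Il10rb 2.59-fold higher and Il22ra1 2.66-fold lower. Il10ra was 2.85-fold higher, a call that was lost in 7 of 16 alternatives, among them leaving out PBS replicate 1 or any single SP replicate (limma adjusted p = 0.0834 without PBS replicate 1). In the gp130 class, 1 of 9 was higher and 2 were lower. The SP mean of Il12rb1 was at least 3.56-fold above PBS, a bound on the PBS side only. Its PBS mean of 4.52 lay within the range of the Y-linked genes (4.33 to 4.90), which served as a background. Their highest value stood in for the PBS mean, and the SP mean was taken as measured. The SP samples spread widely, at 7.58, 7.69, 5.42 and 6.26 (SD 1.09), so the size of this rise is uncertain. The part of other cell types in this spread was not tested. Lifr was 3.06-fold lower, and Il6st, the shared signalling chain gp130, was 2.27-fold lower. Of 11 single chain and common beta receptors, which carry Jak2, 3 were higher and 3 lower, among them Il3ra (2.63-fold higher), Ghr (3.35-fold lower) and Lepr (3.17-fold lower). Thus receptor genes were called in both directions in every class except the common gamma chain class.

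Among ligands of these receptors 11 of 21 were higher and 1 was lower. The SP mean of Csf3 was at least 20.7-fold above PBS, a bound of the same kind as for Il12rb1. Its PBS mean of 4.45 ± 0.13 (SD, n = 4) was within the background range, and its SP samples measured 9.42, 8.21, 10.27 and 9.20. Il12a rose 25.2-fold. Il10 rose 23.2-fold with all samples, with SP values of 9.13, 8.09, 12.18 and 9.79, and 13.4-fold without SP replicate 3, the highest of them. Of 18 STAT targets outside the SOCS family, 8 were higher and 1 was lower, led by Cd274 (14.2-fold), Il1rn (6.23-fold) and Hk2 (4.91-fold). Of the brightest genes of the receptor, ligand and target lists, Il10rb was called higher (1.37 log2 units). The others were not called (Csf3r -0.17, Il13ra1 -0.083, Il6ra 0.093, Osm 0.37 and Arg2 0.65 log2 units), but several of these calls turned on the setting. Arg2 was called in 4 of 16 alternatives, among them without PBS replicate 3 (0.80, limma adjusted p = 0.0371). Osm was called with arrays centred on their medians (0.65, limma adjusted p = 0.0298), and Csf3r (-0.32, limma adjusted p = 0.0335) and Il13ra1 (-0.32, limma adjusted p = 0.0416) after a further quantile normalization.

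**Figure D4:**
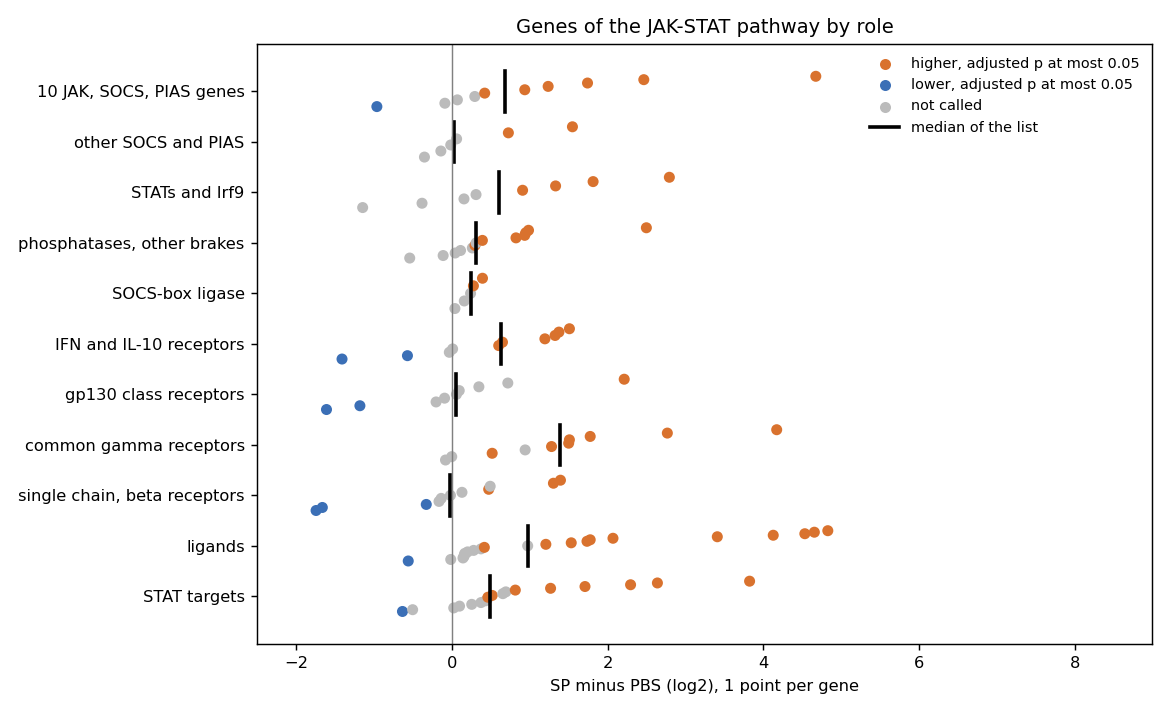
Difference between SP and PBS in log2 units for each gene (points) of the JAK, SOCS and PIAS genes described here and of the 10 other pathway lists, coloured by limma's call, with the median of each list as a black bar. The top row spans -0.96 (Socs2) to 4.67 (Socs1), and called falls appear in 3 of the 4 receptor rows, not in that of the common gamma class, in the ligand and STAT target rows and for Socs2.

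Some marker lists of other lung cells shared the highest and lowest samples of Socs2, while others did not. The list mean of 10 endothelial markers was 10.84, 11.16, 10.31 and 10.20 in PBS and 9.40, 9.60, 8.57 and 9.81 in SP. That of 9 alveolar type 2 markers was 11.80, 12.21, 11.73 and 11.72 in PBS and 10.71, 10.33, 9.94 and 11.18 in SP. Like Socs2, both were highest in PBS replicate 2, lowest in SP replicate 3 and, among SP samples, highest in replicate 4. The full order differed, and PBS replicate 2 and SP replicate 3 were the arrays with the lowest limma weights. Of their genes, 8 of 10 and 8 of 9 were called lower, beside 22.6% of all rows. The alveolar type 1 and club cell lists had these highest and lowest samples too. Fibroblast markers were instead highest in SP replicate 4 (8.83) and B cell markers in PBS replicate 1 (8.35). Among SP samples, ciliated cell markers were highest in replicate 2 (7.47). The growth hormone receptor Ghr, whose signal Socs2 restrains, measured 9.93, 10.08, 9.63 and 9.29 in PBS and 7.84, 7.96, 7.68 and 8.48 in SP. Lifr, the receptor for leukemia inhibitory factor, went from 9.40 ± 0.45 to 7.79 ± 0.65 (SD, n = 4 each). These receptors had the same highest and lowest samples. The part of other cell types in the values of Socs2, Ghr and Lifr was not tested.

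**Figure D5:**
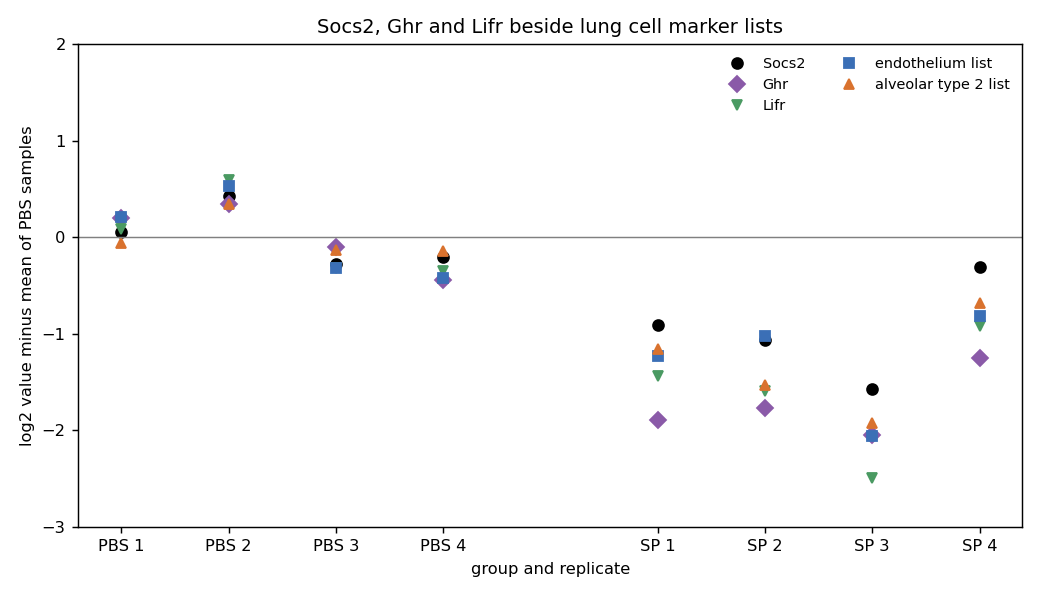
Log2 values of Socs2, Ghr and Lifr and list means of endothelial and alveolar type 2 markers in each sample, each minus its own PBS mean (0 line). All 5 are highest in PBS replicate 2 and lowest in SP replicate 3, and SP replicate 4 is the highest of the SP samples.

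Beside the genes that rose, neutrophil markers gave 0 higher and 3 lower of 10, and the brightest of them, Lcn2, went from 13.32 to 13.54 (limma adjusted p = 0.0505, with a call in 3 of 16 alternatives). Monocyte and interstitial macrophage markers gave 6 higher of 10, with a median difference of 1.02, whereas alveolar macrophage markers gave 1 higher and 4 lower of 8. T cell markers gave 2 higher of 10, NK cell markers none of 7, and eosinophil markers 1 higher of 5. B cell markers were lower for 8 of 8, ciliated cell markers for 7 of 7, club cell markers for 5 of 5, alveolar type 1 markers for 4 of 6 and fibroblast markers for 2 of 8, and dendritic cell markers gave 1 higher and 2 lower of 8. Over all lists 11 of 110 markers were higher and 51 lower, beside 21.5% of all rows called higher and 22.6% called lower. The T cell and eosinophil counts of higher genes lay near those shares. So did the neutrophil, dendritic cell and fibroblast counts of lower genes. The part of these cell types in the values of the JAK and SOCS genes was not tested.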

How the data were processed

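The deposited values are log2 expression levels that the authors made from the array signals by RMA, with correction for probe GC content and sequence, quantile normalization, and a summary of each gene's probes by median polish. The submitters' processing notes name Affymetrix Expression Console, RMA and Partek. Quantile normalization makes values relative within an array, so a change in total RNA cannot be read from them. Groups and replicate numbers came from the sample titles.

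Row identifiers were matched to symbols through RefSeq genes of GRCm38.p6 (19915 of 24625 rows). All rows were compared with limma 3.58.1 in R 4.3.3 (lmFit and eBayes, no covariates, two-sided, Benjamini-Hochberg adjustment over all rows). A call needed an adjusted p of at most 0.05, and sizes were read against a 2-fold difference. On simulated data with 200 changed of 24625 rows for SP against PBS, limma recovered 69.6% of 2-fold and 98.0% of 4-fold changes with 9 false calls. The methods' t-test recovered 51.0% and 85.7%. Counts and figures were made with Python 3.11.15, pandas 2.3.3 and matplotlib 3.10.9.

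The members and lists were chosen with earlier results of these data known. Genes named were the 10 genes, those of the further SOCS and PIAS, STAT and ubiquitin ligase lists, and the 3 largest called differences and the brightest gene of other pathway lists. For cell type lists the brightest gene was computed, and few are printed. The counts of the pathway lists include 1 gene that is not reported here.

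Alternatives were the methods' t-test, a trend with a robust prior, array weights, a block for the replicate number, centring of arrays on their medians, a further quantile normalization, dim rows left out, limma treat and leaving out each sample. Limma treat tests against a 2-fold difference. It was read only as counts and is not among the 16 alternatives counted for single genes. Leaving out PBS replicate 2 and SP replicate 3 together was added after seeing the data. The microRNA arrays of the study were not analysed here.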

Additional observations from a re-analysis of the deposited data

Results flagged for a closer look

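Among the named genes, single samples were checked in 140 groups of 4 by the ratio of the gap beside the outermost sample to the range of the group, and 7 groups passed Dixon's critical value at 95%. Chance flags about 1 in 20 groups. For Socs1, PBS replicate 2 lay below the other PBS samples at 5.51 (ratio 0.901). For Socs3, SP replicate 3 lay above the other SP samples at 12.46 (ratio 0.949). SP replicate 3 also stood apart for Stat4 at 9.92 (ratio 0.845), for Il7r at 8.59 (ratio 0.922), for Osm at 12.59 (ratio 0.84) and for the ciliated cell marker Tppp3 at 9.17 (ratio 0.966). PBS replicate 2 stood apart for Siglecf, a marker of alveolar macrophages and eosinophils, at 7.29 (ratio 0.874). All 7 lay in the pair of arrays with the lowest limma weights. Those weights were computed from the same values, so this is no separate evidence about the arrays. Socs1 and Socs3 were called with and without that pair.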

How the results depend on the processing

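Under the alternatives other than limma treat, Jak2, Tyk2, Socs1, Socs3, Socs6 and Cish kept their direction and their call. Socs2 fell in every alternative, but its call was lost without PBS replicate 1 (-0.95, limma adjusted p = 0.0503; range without any 1 sample -1.19 to -0.76) and without PBS replicate 2 and SP replicate 3 (-0.62, limma adjusted p = 0.0507), a setting chosen after seeing the data. With arrays centred on their medians, Jak1 was called (0.57), Jak3 turned to 0.19, 18255 rows were called in place of 10860, and the medians of the pathway and cell marker lists went to 0.67 and -0.25 from 0.39 and -0.53. This centring moved the median difference of all rows from 0.10 to 0.38, and rows called at least 2-fold were 2375 higher and 1896 lower, in place of 1568 higher and 2773 lower. A further quantile normalization gave 1878 higher and 2198 lower. Limma treat left 1572 rows at least 2-fold, and without dim rows the cell marker median was -0.92. Pias1 turned to -0.14 after quantile normalization, to -0.037 without PBS replicate 2 (range without any 1 sample -0.037 to 0.12) and to -0.0013 without both low-weight arrays.

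Other named genes that turned sign, all with no call, were Pias2 (0.27), Elob (-0.027) and Clic5 (0.41) with array weights, Pias2 (0.27), Pias3 (0.14), Ptprc (0.17), Il13ra1 (0.20), Csf3r (0.11) and Clic5 (0.12) with centred arrays, Socs5 (0.070), Pias2 (0.078), Pias3 (0.11), Stat3 (-0.091), Elob (-0.16) and Il6ra (-0.098) after quantile normalization, and Pias2 (0.35), Elob (-0.041) and Clic5 (0.39) without both low-weight arrays. Without any 1 sample, the ranges that crossed 0 were Socs7 -0.022 to 0.18, Pias2 -0.16 to 0.23, Elob -0.044 to 0.080, Il6ra -0.085 to 0.21, Clic5 -0.37 to 0.21 and Il13ra1 -0.22 to 0.020. The cause was not tested.

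With the replicate number as a block, 9842 rows and 7 of the 10 genes were called, 4 of the 10 at least 2-fold, and no call among the 10 changed. Residuals of samples with the same number correlated at 0.016, 0.030, 0.350 and -0.274. PBS replicate 3 correlated at -0.363 to -0.045 with SP samples of other numbers. For PBS replicates 1, 2 and 4, some SP sample of another number correlated better than that of the same number. Whether a shared number stands for a shared day or batch cannot be told from the labels or from so few samples. Of the 10 genes, those called at least 2-fold numbered 5 with centred arrays, 6 after quantile normalization, and 3 with treat or without both low-weight arrays. As each of the 10 genes had 1 row, averaging rows of a symbol gave nothing further. Depth on arrays is signal over background, and among the 10 genes Socs1 in PBS replicate 2 (5.51) was nearest to the level of Y-linked genes.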
